A study of Homo sapiens with 4 samples.

Results

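Aminoacyl-tRNA synthetases join each amino acid to its tRNA and so supply the ribosome with charged tRNAs. One set of enzymes works in the cytosol and another, also encoded in the nucleus, works in mitochondria. Several cytosolic enzymes sit in the multi-tRNA synthetase complex, which is held together by the scaffold proteins AIMP1, AIMP2 and EEF1E1. When amino acids run short or proteins misfold, kinases phosphorylate eIF2, translation of the transcription factor ATF4 rises, and ATF4 raises the transcription of many cytosolic synthetases together with amino acid enzymes and transporters. ATF4 binds a composite element of C/EBP and ATF sites. The mitochondrial enzymes are not, as a group, known ATF4 targets.

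The 27 genes described here were chosen by annotation: every gene among 41 cytosolic and mitochondrial synthetases and AIMP scaffold proteins that at least 1 probe set of the array names alone. They had 39 probe sets, out of 22215 on the array that are not controls. Of the 27 genes, 12 are cytosolic synthetases known as ATF4 targets (17 probe sets), 4 are cytosolic synthetases not listed as targets (6 probe sets), 10 are mitochondrial (14 probe sets) and 1 is the scaffold protein AIMP1 (2 probe sets). MARS1, QARS1 and TARS2 were not analysed here, because their 5 probe sets also name a microRNA gene. The other 11, among them FARSB, AIMP2 and EEF1E1, were not analysed here either. The list of ATF4 targets comes from general knowledge of the pathway, and the members were chosen with results of these arrays known.

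The samples were LNCaP cells, an established androgen-responsive line from a human prostate cancer metastasis, grown in serum-containing medium. One group of 2 samples received a MED1 expression vector by lipofection and the other group of 2 received the empty vector; all 4 went through the same transfection, and RNA was taken after 24 hours. MED1 is a subunit of Mediator, which connects transcription factors to RNA polymerase II. For the controls, 1 descriptive label names the MED1 vector, whereas title and transfection label give the empty vector and were followed here. The transfection was transient and the share of cells that took up a vector is not given, so values are averages over cells with and without it, and in such bulk RNA fewer cells of a kind and less RNA per cell cannot be told apart. Whether the duplicates are separate cultures is not stated, so each p-value reflects only how far these samples differ, and that spread may be technical.

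Values are MAS5 signals, and fold changes are differences of log2(signal + 16), MED1 minus empty vector, with the standard error (SE) of limma. A probe set passed when its Benjamini-Hochberg adjusted p over all 13329 tested probe sets was below 0.05. Median signals of the arrays were 77.0 to 82.7. The 3' to 5' ratio ranged from 8.14 to 9.45 for the actin controls and from 1.16 to 1.27 for the GAPDH controls. All 12 probe sets for luminal prostate genes were tested. Their summed signals were 28037 and 30555 on the MED1 arrays and 30317 and 32491 on the controls. Of the probe sets for leukocyte genes 0 of 7 passed the signal filter. Of those for basal prostate genes 1 of 2 did (KRT14, signals of 69.9 to 108). So did 1 of 5 for endothelial genes (VWF, 118 to 150) and 1 of 15 for fibroblast genes (COL1A1, 65.8 to 156). Of the luminal probe sets 0 passed the test. However, 6 of 12 had both MED1 arrays below both controls and 0 the reverse, beside 22.6% and 17.2% of all tested probe sets. At an unadjusted limma p of 0.05, 3 were lower, beside 5.2% of all tested probe sets. The median log2 fold change over 8 luminal genes was -0.12, and the part of this in the values below was not tested. The MED1 transcript read 559 and 807 in the MED1 samples, against 292 and 315 in the empty vector samples by 1 probe set (log2 fold change 1.11 ± 0.16, adjusted p = 0.032). A second MED1 probe set read 1172 and 1074 against 1097 and 1011 and did not pass (0.09 ± 0.10).

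CARS1 was the member that passed: its transcript was lower in the MED1 samples by both probe sets. Of 36 tested member probe sets, 2 fell and 0 rose, both of CARS1, so 1 of 26 tested genes passed. Among all tested probe sets 0.188% passed lower and 0.105% passed higher. GARS1, YARS1, AARS1 and SARS1 followed with log2 fold changes of -0.57 to -0.41, but did not pass. In each, both MED1 arrays lay below both controls, as in 22.6% of all tested probe sets. All these genes, CARS1 included, are listed ATF4 targets. The cytosolic enzymes not listed as targets lay at -0.04 to 0.11 by their brightest probe sets.

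Promoter letters were compared between the sets because ATF4 binds a known element. Its core was searched as TGATGNAA on both strands, N being any base, in windows from 250 bases before to 50 bases after each RefSeq start site (GRCh38.p14). Windows were given for 24 of the 27 genes, all but LARS1, VARS1 and YARS1, and some genes had several start sites (34 windows in all). The letters were found in 6 of 9 ATF4 targets, 0 of 4 other cytosolic synthetases, 1 of 10 mitochondrial synthetases and not in AIMP1, against 4.46% of all 27305 genes with a window and 3.62% of single windows. They were found in 8 of 26 genes of the ATF4 programme described further on. All 7 matches are shown with 11 bases on each side, read along the gene's strand, and the capitals mark the match. TTGCATCA is TGATGCAA read on the other strand, and TTTCATCA holds the element on the other strand as well.
CARS1: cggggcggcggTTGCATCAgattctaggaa
GARS1: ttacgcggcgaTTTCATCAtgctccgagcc
AARS1: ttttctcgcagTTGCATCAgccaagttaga
IARS1: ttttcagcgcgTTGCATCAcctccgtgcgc
TARS1: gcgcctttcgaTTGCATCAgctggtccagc
NARS1: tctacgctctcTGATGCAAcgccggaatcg
YARS2: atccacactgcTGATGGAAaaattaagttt

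The stretches lie at chr11:3057407-3057436 (CARS1, minus strand), chr7:30594834-30594863 (GARS1, plus), chr16:70289675-70289704 (AARS1, minus), chr9:92293692-92293721 (IARS1, minus), chr5:33440956-33440985 (TARS1, plus), chr18:57621804-57621833 (NARS1, minus) and chr12:32756076-32756105 (YARS2, minus). The first base of the match was 2 bases before the start site in CARS1, 13 before it in IARS1, 187 before it in AARS1 and 33 before the second of 2 start sites in GARS1. It was the base numbered 3 after the start in TARS1 and 15 in NARS1, so the matches of these 2 genes lie in transcribed sequence. The CARS1 match, 8 bases long, runs across the start site, so most of it lies in transcribed sequence as well. The mitochondrial YARS2 match lies 197 bases before the start. The stricter letters TGATGCAA, searched after these matches were seen, were found in AARS1, CARS1, IARS1, NARS1 and TARS1 and in no other member with a window, against 1.08% of all genes with a window. A match describes these letters in this window and says nothing of binding, and a gene without one may carry the element elsewhere.

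**Figure D1:**
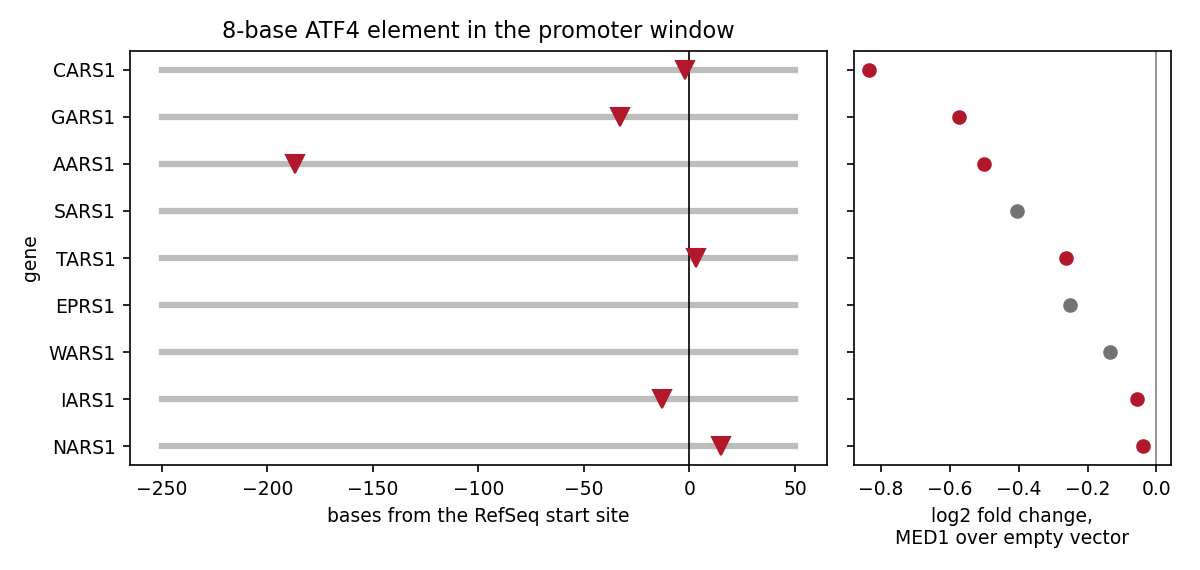
Position of the 8-base match (triangle) in the promoter window of the 9 ATF4 targets with a window, in bases from the RefSeq start site of that window (left), and the log2 fold change of each gene's brightest probe set (right; red with a match, grey without). Genes with a match lie at both ends of the order, from CARS1 at -0.84 to NARS1 at -0.04.

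Among the targets, genes with and without a match overlapped in their change. The 6 with a match ranged from -0.84 to -0.04 with a median of -0.38, and the 3 without one (SARS1, EPRS1 and WARS1) ranged from -0.41 to -0.14 with a median of -0.25. IARS1 and NARS1 carry a match within 15 bases of the start and had overlapping arrays in the 2 groups.

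CARS1, which charges cysteine, read 2067 and 2437 in the MED1 samples, against 3709 and 4356 in the empty vector samples by its brighter probe set. The higher MED1 array lay well below the lower empty vector array. The log2 fold change was -0.84 ± 0.12 (SE), 1.79-fold lower (limma, Benjamini-Hochberg adjusted p = 0.0219). Its dimmer probe set read 330 and 382 against 663 and 722, a change of -0.93 ± 0.12 (adjusted p = 0.0141), so both probe sets gave the same direction and a similar size. Neither passed without empty vector replicate 2 (adjusted p = 0.0713 for the dimmer and 0.111 for the brighter), when dim probe sets were kept (0.145 and 0.293) or without the variance trend (0.261 and 0.359).

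GARS1, which charges glycine in both the cytosol and mitochondria, read 3260 and 3722 in the MED1 samples, against 5192 and 5198 in the empty vector samples. The arrays of the groups did not overlap, and the change of -0.57 ± 0.10 did not pass (limma, Benjamini-Hochberg adjusted p = 0.0661). It passed with quantile normalization (0.0237), with the filter at the 60th percentile (0.0423) and with robust eBayes (0.0452), whereas the adjusted p was 0.143 with arrays centred on their medians, 0.422 when dim probe sets were kept and 0.416 without the variance trend. YARS1, the tyrosine enzyme, read 1988 and 2122 against 2804 and 3126, also without overlap (-0.52 ± 0.10, adjusted p = 0.0961). AARS1, the alanine enzyme, read 1099 and 1193 against 1519 and 1739 (-0.50 ± 0.10, adjusted p = 0.150). SARS1, which charges serine and the selenocysteine tRNA, read 2010 and 2306 against 2853 and 2865 (-0.41 ± 0.10, adjusted p = 0.241). In all 4 of these genes both MED1 arrays lay below both empty vector arrays, as they did in 22.6% of all tested probe sets. The 4 are grouped here for their low values, so this order is no separate result. With an array left out, the change ran from -0.67 to -0.48 for GARS1 and from -0.60 to -0.45 for YARS1. It ran from -0.60 to -0.40 for AARS1 and from -0.50 to -0.31 for SARS1.

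TARS1, the threonine enzyme, and EPRS1, a single protein that charges both glutamate and proline, differed less. TARS1 read 4002 and 4029 in the MED1 samples, against 4825 and 4807 in the empty vector samples, with the arrays of each group close together (-0.26 ± 0.09, limma adjusted p = 0.431). The brightest of 3 EPRS1 probe sets read 3571 and 3374 against 3994 and 4284 (-0.25 ± 0.09, adjusted p = 0.460). The other EPRS1 probe sets gave -0.17 ± 0.09 and, at the lowest signal, -0.47 ± 0.13. All 3 had both MED1 arrays below both empty vector arrays, with sizes that differed between them.

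The remaining 5 ATF4 targets did not separate downward. WARS1, the tryptophan enzyme, read 989 and 1118 in the MED1 samples, against 1111 and 1205 in the empty vector samples, with overlap (-0.14 ± 0.10), and a dimmer probe set gave -0.11 ± 0.16. WARS1 is also induced by interferon. Of 11 tested interferon-stimulated genes 6 passed higher on these arrays (7 of 13 tested probe sets, beside 0.105% of all). Over the 11 genes the median log2 fold change was 1.51 and 10 values were positive. MX1, at signals of 20.6 to 49.6, gave -0.71 ± 0.26 without passing, and IRF1 gave 0.01 ± 0.26. The part of interferon in the WARS1 value was not tested.

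IARS1, the isoleucine enzyme, read 4538 and 4787 against 4699 and 4993 (-0.06 ± 0.09). NARS1, the asparagine enzyme, read 5638 and 5513 against 5876 and 5594 (-0.04 ± 0.09). The groups overlapped in both genes.

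LARS1, the leucine enzyme and a leucine sensor for mTORC1, read 1199 and 1031 in the MED1 samples, against 1019 and 1025 in the empty vector samples, so both MED1 arrays were higher, 1 of them by little (0.12 ± 0.10, limma adjusted p = 0.766). The name of its probe set ends in _x_at, which marks probes shared with other transcripts. VARS1, the valine enzyme, read 856 and 1020 against 899 and 791, with overlap (0.15 ± 0.12), and a dim second probe set gave 0.15 ± 0.31. With an array left out, LARS1 ranged from 0.012 to 0.23 and the brighter VARS1 probe set from 0.021 to 0.27.

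**Figure D2:**
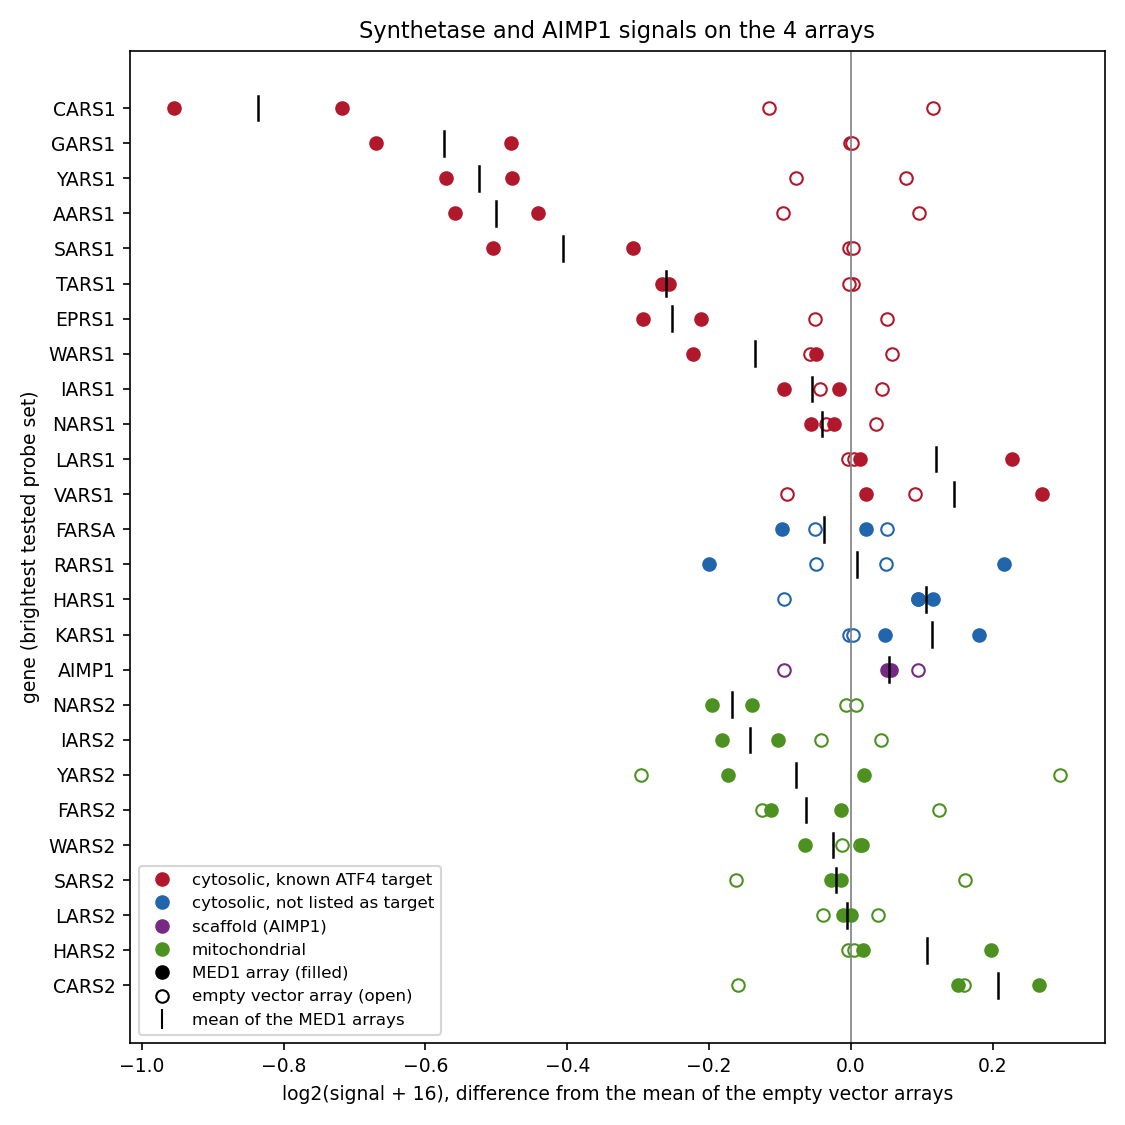
Each row is 1 of the 26 tested genes by its brightest tested probe set; filled points are the 2 MED1 arrays, open points the 2 empty vector arrays, and the bar the mean of the MED1 arrays, as log2(signal + 16) relative to the mean of the empty vector arrays. From CARS1 down to EPRS1, 7 ATF4 targets have both filled points left of both open points; the blue and green rows mostly overlap.

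Counted by gene, both MED1 arrays lay below both empty vector arrays in 7 of 12 ATF4 targets, 0 of 4 other cytosolic synthetases and 2 of 9 tested mitochondrial ones. Counted by probe set, they did so in 10 of 17, 0 of 6 and 3 of 11, where 22.6% of all tested probe sets did. The reverse order was seen in 1, 2 and 1 of these probe sets, where 17.2% of all did. At an unadjusted p of 0.05, 9 of 17 probe sets of ATF4 targets were lower (0 higher) and 0 of the 19 other tested member probe sets were lower, beside 5.2% of all tested probe sets.

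The 4 cytosolic synthetases not listed as ATF4 targets gave small values in both directions, and 0 of 6 probe sets passed (limma; 0 also at an unadjusted p of 0.05). KARS1, which charges lysine in cytosol and mitochondria, read 11690 and 12811 in the MED1 samples, against 11282 and 11323 in the empty vector samples (0.11 ± 0.10), while a dimmer KARS1 probe set gave -0.04 ± 0.10 with overlapping arrays. HARS1, the histidine enzyme, read 2001 and 2031 against 1753 and 2001 (0.11 ± 0.10); its lower MED1 array and higher empty vector array were nearly equal, and the change ran from 0.010 to 0.20 with an array left out. RARS1, the arginine enzyme, read 3925 and 2940 against 3265 and 3496 (0.01 ± 0.13), with the MED1 arrays on either side of the controls. FARSA, the catalytic subunit of the phenylalanine enzyme, read 1119 and 1029 against 1063 and 1143 (-0.04 ± 0.10), and its second probe set gave 0.06 ± 0.11.

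The scaffold protein AIMP1 had 2 probe sets, with overlapping arrays in each. The brighter read 1879 and 1873 in the MED1 samples, against 1691 and 1931 in the empty vector samples (0.05 ± 0.10), and the other gave -0.11 ± 0.12.

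**Figure D3:**
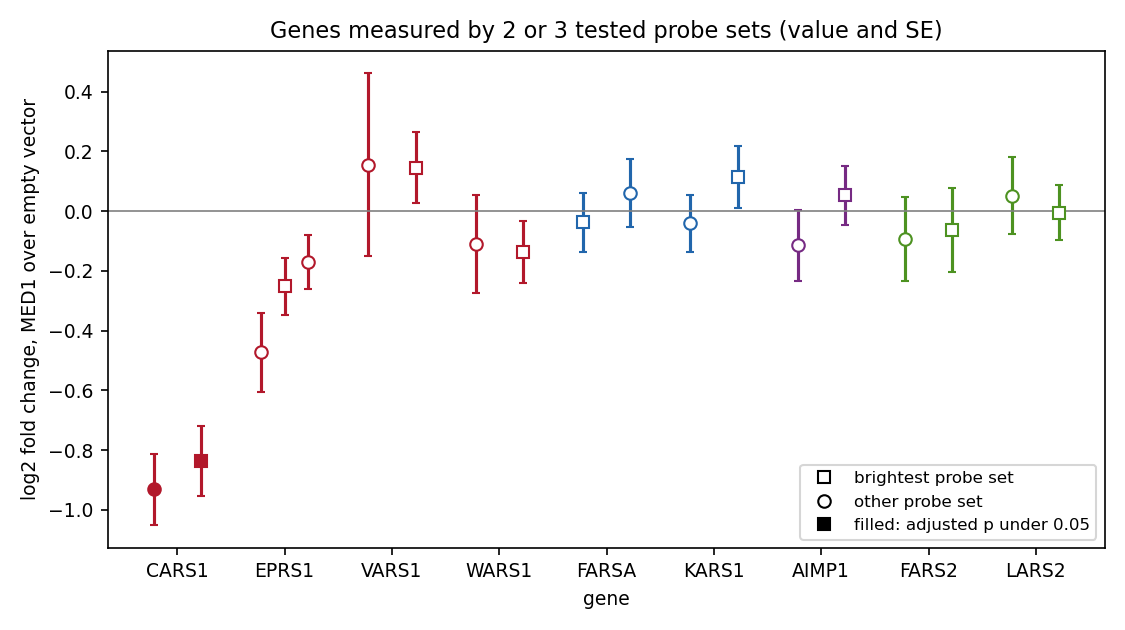
Log2 fold change with its SE for the 9 genes with 2 or 3 tested probe sets; squares are the brightest probe set, circles the others, and filled symbols passed. The CARS1 pair lies at -0.93 and -0.84, the EPRS1 probe sets from -0.47 to -0.17, and the probe sets of FARSA, KARS1, AIMP1 and LARS2 lie on both sides of 0.

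Of the mitochondrial synthetases 0 of 11 tested probe sets passed (limma; 0 also at an unadjusted p of 0.05). NARS2, the mitochondrial asparagine enzyme, gave the lowest value: it read 635 and 610 in the MED1 samples, against 698 and 704 in the empty vector samples, without overlap (-0.17 ± 0.10, adjusted p = 0.635). IARS2, the isoleucine enzyme, read 2563 and 2708 against 2825 and 2995, also without overlap (-0.14 ± 0.09). At the other end, CARS2, the mitochondrial counterpart of CARS1, read 281 and 306 against 224 and 283 (0.21 ± 0.15); 1 MED1 array and 1 empty vector array were nearly equal, and the change ran from 0.049 to 0.37 with an array left out. HARS2, the histidine enzyme, read 745 and 847 against 734 and 739, with both MED1 arrays higher (0.11 ± 0.11).

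YARS2, WARS2, SARS2, LARS2 and FARS2 lay between -0.08 and -0.01 by their brightest probe sets, all with overlapping arrays. YARS2, the mitochondrial gene with a promoter match, read 689 and 789 in the MED1 samples, against 959 and 632 in the empty vector samples, the widest spread between duplicates among these 5. LARS2 read 1200 and 1210 against 1177 and 1243 (-0.01 ± 0.09), and its second probe set read 419 and 505 against 465 and 422 (0.05 ± 0.13), with overlap in both. A second FARS2 probe set read 196 and 200 against 216 and 208, without overlap (-0.09 ± 0.14). The 3 member probe sets below the signal filter, 1 of FARS2 and both of RARS2, entered no test. The FARS2 one read 4.30 to 18.6 over the 4 arrays and those of RARS2 0.433 to 4.48, so RARS2, the mitochondrial arginine enzyme, has no usable value here.

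Pairs of enzymes that charge the same amino acid in the 2 compartments give the contrast gene by gene. The cytosolic and mitochondrial members gave -0.84 and 0.21 for cysteine, -0.52 and -0.08 for tyrosine, and -0.41 and -0.02 for serine. They gave -0.14 and -0.03 for tryptophan, -0.06 and -0.14 for isoleucine, -0.04 and -0.17 for asparagine, 0.12 and -0.01 for leucine, 0.11 and 0.11 for histidine, and -0.04 (the catalytic subunit FARSA) and -0.06 for phenylalanine. Of these 9 pairs the cytosolic value was lower in 4 and higher in 4, and the histidine pair differed by less than 0.01. The differences were not tested.

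**Figure D4:**
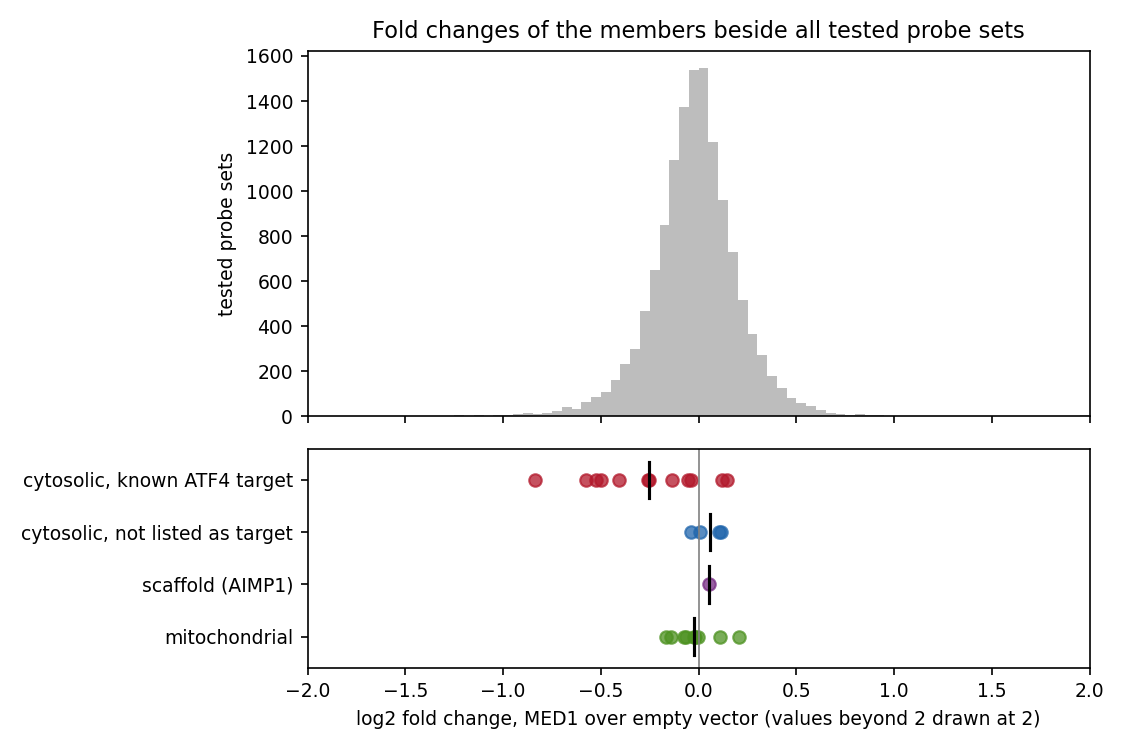
Top, the log2 fold changes of all 13329 tested probe sets in bins of 0.05; bottom, those of the members by their brightest tested probe set, with the median of each set as a bar. The ATF4 targets have a median of -0.26, and the other sets have medians of -0.03 to 0.06, near the centre of all probe sets at -0.02.

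Over genes, the median log2 fold change was -0.26 for the 12 ATF4 targets, 0.06 for the 4 other cytosolic synthetases and -0.03 for the 9 tested mitochondrial ones, beside -0.02 for all tested probe sets. The medians near 0 have no firm sign: that of the other cytosolic synthetases was -0.015 without empty vector replicate 1, and that of the mitochondrial ones was 0.027 with each array centred on its median and 0.00054 without MED1 replicate 1. Of the 12 targets 10 had a negative value, and of all 7957 tested genes 54.5% did. The difference between the medians of targets and other cytosolic enzymes was -0.31. Taken array by array against the mean of the empty vector arrays, that difference came to -0.32 and -0.28 on the MED1 arrays and to 0.03 and -0.03 on the controls, so both MED1 arrays lay apart from both controls. The pooled SD between duplicates was 0.03. It rests on 4 comparison genes, and with 2 arrays against 2 an exact permutation test cannot go below p = 0.333. Without the probe sets marked as shared between transcripts (names ending in _x_at or _s_at) the difference was -0.39, over fewer targets. EPRS1, GARS1, IARS1, LARS1, VARS1 and YARS1 have only such probe sets and dropped out. They include LARS1 and VARS1, the targets with positive values, and GARS1 and YARS1 at -0.57 and -0.52.

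Among the members, complex partners and free enzymes had different medians but overlapping values. Those in the complex ran from -0.25 to 0.12, and those of the cytosolic synthetases outside it from -0.84 to 0.15. The 6 tested genes of the multi-tRNA synthetase complex (EPRS1, IARS1, LARS1, KARS1, RARS1 and AIMP1) had a median of 0.03, with 2 negative values, and 0 of their 10 probe sets passed (limma; 2 were lower at an unadjusted p of 0.05). The 11 cytosolic synthetases outside it had a median of -0.26, with 9 negative values. Within the ATF4 targets alone, the 3 in the complex had a median of -0.06 and the 9 outside it -0.41. By structural class of the catalytic domain, the medians were -0.06 for 7 cytosolic enzymes of class I and -0.15 for 8 of class II, EPRS1 having domains of both. These are descriptions of sets of few genes, and the differences were not tested.

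The ATF4 programme also holds genes that are not synthetases. Of 32 such genes tested 11 fell and 0 rose. Counted by probe set, 13 of 48 passed lower, beside 0.188% of all tested probe sets. The median log2 fold change was -0.53, and 30 values were negative, beside 54.5% of all tested genes; the list was chosen with results of these arrays known, and its difference from the synthetases was not tested. ASNS, asparagine synthetase, read 2455 and 2547 in the MED1 samples, against 3778 and 3690 in the empty vector samples (-0.58 ± 0.09, limma adjusted p = 0.040). ATF4 itself read 6279 and 7944 against 10578 and 9798 and did not pass (-0.53 ± 0.13, adjusted p = 0.238). XPOT, which exports tRNAs from the nucleus, gave 0.06 ± 0.11. CARS1 at -0.84 lay beyond the median of these genes, and WARS1, IARS1, NARS1, LARS1 and VARS1 lay above all 30 with negative values.

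Lists of other translation genes had medians of -0.10 to 0.05, with single genes on either side. Of 5 tested kinases and partners upstream of ATF4 0 passed, with a median of 0.05. EIF2AK4, another kinase of this list, had no probe set naming it alone, and the activity of the kinases was not measured. Of 6 cytosolic elongation and release factors 0 passed, with a median of 0.01. Of 4 mitochondrial translation factors 0 passed, with a median of -0.10 (limma). At an unadjusted p of 0.05, 0 probe sets of these 3 lists were lower and 2 were higher. They were the brightest of EIF2AK2, the double-stranded RNA kinase, at 0.33 ± 0.12 (another gave 0.07 ± 0.12) and the dimmer of the release factor ETF1 at 0.30 ± 0.09 (the brighter gave -0.02 ± 0.09). The elongation factor EEF2, which moves the ribosome along the message, read 14604 and 16135 in the MED1 samples, against 14626 and 14586 in the empty vector samples (0.07 ± 0.11), and a second probe set gave -0.21 ± 0.11.

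**Figure D5:**
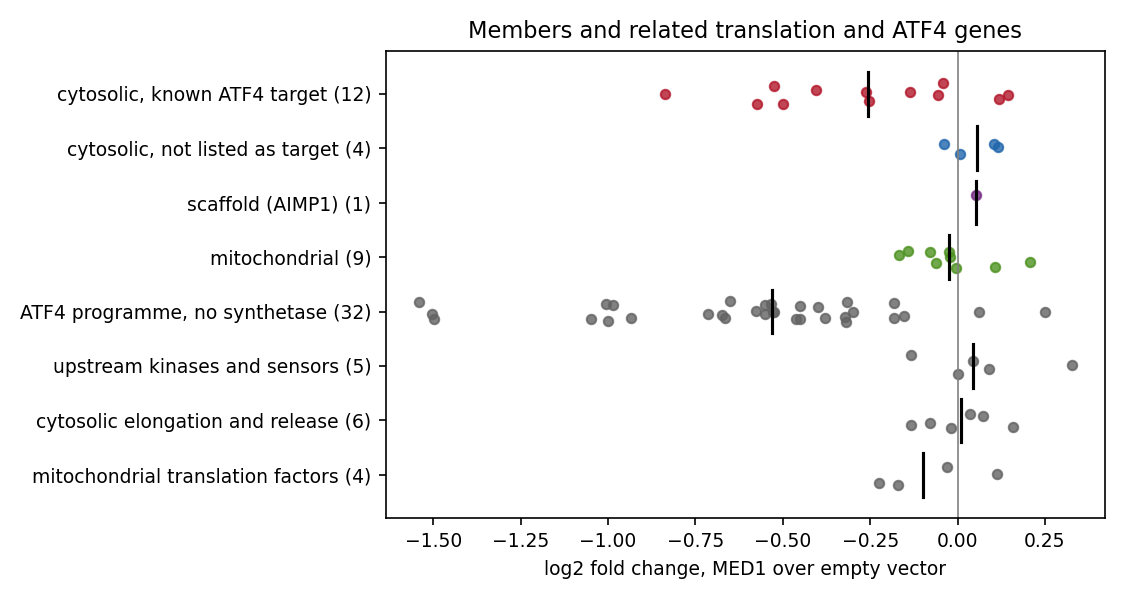
Log2 fold change of each tested gene (point, brightest probe set) and the median (bar) for the 4 sets of members and 4 lists of related genes, with the number of genes in parentheses. The non-synthetase ATF4 programme has a median of -0.53, the synthetases known as ATF4 targets -0.26, and the lists of kinases and translation factors -0.10 to 0.05.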

How the data were processed

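Per the submitters' processing notes, the deposited values are MAS5 signal intensities, 1 per probe set and array on a linear scale; its version is not given in the sources used here. Each array's mean trimmed by 2% at either end was 500.2, so no scaling was added. The array table names 1 gene for 19064 probe sets, several for 1043 and none for 2108; symbols were updated through Entrez identifiers to RefSeq (GRCh38.p14). RNA input was 200 ng per sample.

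The 40% of probe sets with the lowest mean log2(signal + 16), below a signal of 31.0, were left out, which left 13329. All of these were fitted with limma 3.58.1 in R 4.3.3 (lmFit, eBayes with a trend; prior degrees of freedom 7.30), without a block, and p-values were adjusted by Benjamini-Hochberg over all of them. A gene is summarised by its brightest tested probe set. List medians have no test. SDs are between 2 arrays.

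Members, target list and related lists were chosen with earlier results of these data known. Named with all 4 signals were passing members, ATF4 targets, and the 2 lowest and 2 highest of the other sets; the remaining members are summarised, and YARS2 was added for its promoter. EEF2 and the related genes named were picked after their values were seen. Promoter windows came from RefSeq, and a gene counted where any of its windows matched; in all 2828 overlapping pairs on opposite strands the letters were reverse complements. Alternatives covered the pseudocount, scaling, filter, eBayes settings, a replicate block, each array left out, the threshold and the choice of probe sets. Plots used matplotlib 3.10.9.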

Additional observations from a re-analysis of the deposited data

How the results depend on the processing

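The count of passing members was 2 probe sets (1 gene, CARS1). It was 0 probe sets and 0 genes when dim probe sets were kept and when eBayes had no variance trend (limma; 9 member probe sets had an unadjusted p below 0.05 in the fit reported), 3 probe sets of 2 genes with quantile normalization, with the filter at the 60th percentile and with robust eBayes, 4 of 3 genes at an adjusted p of 0.1, and 0 to 7 probe sets and 0 to 6 genes with an array left out. A block for the replicate number gave 7 probe sets of 6 genes, the added ones being AARS1, EPRS1, GARS1, SARS1 and YARS1, all lower. The share of all tested probe sets that passed was counted only for the fit reported (0.188% lower and 0.105% higher). Member counts under the other settings have no such share beside them, so their rise or fall is no result about the members. Same-numbered deviations correlated at 0.12 over the tested probe sets. With 2 arrays per group the second pair mirrors the first, so this value cannot decide whether same-numbered samples share more than a number. No call of a member was added in the higher direction under any of these settings, and the CARS1 probe sets stayed negative in all. Centring each array on its median moved the median of the ATF4 targets to -0.20 and of the mitochondrial genes to 0.027. Leaving out probe sets shared between transcripts moved the targets to -0.33 and their difference from the other cytosolic synthetases to -0.39. That setting also dropped EPRS1, GARS1, IARS1, LARS1, VARS1 and YARS1 from the targets. With an array left out, the mitochondrial median was -0.065 to 0.00054, that of the other cytosolic synthetases -0.015 to 0.087 and the difference -0.32 to -0.27. Without WARS1 the target median was -0.26.

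Members near 0 changed sign without passing. Centring gave 0.012 for NARS1, 0.014 for FARSA, 0.011 for the dimmer KARS1 probe set, 0.047 for LARS2, 0.031 for SARS2 and 0.027 for WARS2, and quantile normalization 0.010 for SARS2. With an array left out the ranges were -0.18 to 0.49 for the dim VARS1 probe set, -0.33 to 0.11 for the dim WARS1 one, -0.098 to 0.022 for FARSA, -0.095 to 0.013 for the dimmer KARS1 one, and -0.20 to 0.22 for RARS1. They were -0.28 to 0.051 and -0.041 to 0.15 for the AIMP1 probe sets, -0.19 to 0.062 for FARS2, -0.080 to 0.18 and -0.044 to 0.033 for LARS2, -0.18 to 0.14 for SARS2, -0.065 to 0.015 for WARS2 and -0.37 to 0.22 for YARS2. Leaving out an array gives fewer samples; otherwise the cause was not tested. A lone array was assumed to vary like the other group. Without detection calls, low signals have no known background.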
